A study of Homo sapiens with 4 samples.

Results

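The unfolded protein response and the amino acid stress response were examined through 47 genes, all of which were found among the 18132 genes measured on the arrays. They were chosen as known sensors, transcription factors and targets of these responses, by exact gene symbol in the platform annotation. Each gene was read on its brightest probe set, judged by the mean of the 4 arrays, and the 47 genes had 145 probe sets in all. The arrays carried RNA of U87MG, a long-established human glioblastoma cell line. The 2 NeuroD2 arrays came from cells transfected with an expression vector for NeuroD2, a basic helix-loop-helix transcription factor of neuronal differentiation. The 2 control arrays came from cells that received a control vector, labelled PCMV. Both groups were kept at 0.2% oxygen in medium with serum and harvested 48 hours after transfection, so low oxygen, itself a condition that can burden protein folding, was shared by both. The labels call the arrays biological replicates without saying how cultures were separated, and p-values therefore measure the spread between these samples, which may be technical. All cells were of 1 line, and the share of cells that took up a vector is not given in the sources used here.

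Secretory and membrane proteins fold in the endoplasmic reticulum (ER), where 3 membrane sensors respond to unfolded protein. IRE1 (ERN1) splices the messenger RNA of XBP1, ATF6 is cut to release a transcription factor, and PERK (EIF2AK3) phosphorylates the translation factor eIF2-alpha. The last step is shared with GCN2 (EIF2AK4), which senses uncharged transfer RNA, so that ER stress and amino acid shortage both slow translation and both favour translation of ATF4. ATF4 then drives genes of amino acid synthesis, amino acid uptake and transfer RNA charging, and it induces DDIT3 (CHOP). PPP1R15A (GADD34) brings a phosphatase to eIF2-alpha and ends the signal. Splicing of XBP1, cutting of ATF6, phosphorylation of eIF2-alpha and translation of ATF4 are not seen in these array values, which report the level of each transcript.

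All values are the authors' deposited values, read as log2 probe set levels, and a difference is NeuroD2 vector minus control vector on that scale. Groups were compared with limma across all 18132 genes, and a gene was called where its Benjamini-Hochberg adjusted p over all genes was below 0.05. NEUROD2 itself read 7.37 and 7.82 on the NeuroD2 arrays, against 5.46 and 5.35 on the control arrays, a difference of 2.19 (limma adjusted p = 0.0044). Of the glioma and astroglial markers, VIM (14.1 to 14.2) and CD44 (12.7 to 12.9) were bright on all arrays, whereas GFAP (6.07 to 6.35), S100B (4.74 to 4.94) and AQP4 (3.15 to 3.39) were dim. Of the 9 markers in that list 2 fell, CHI3L1 by 0.51 (limma adjusted p = 0.0383) and SLC1A3 by 0.41 (limma adjusted p = 0.0409). The others were not called. GFAP (0.24), S100B (0.18), AQP4 (0.07) and CD44 (0.03) differed by more than 0, and SPARC (-0.30), NES (-0.25) and VIM (-0.002) by less. The summed log2 level of the list was 71.1 on both NeuroD2 arrays, against 71.8 and 72.3 on the control arrays. Of 5 neuronal markers 1 fell, SNAP25, by 0.59 (limma adjusted p = 0.0312). The others, STMN2 (0.21), RBFOX3 (0.08), SYN1 (-0.05) and TUBB3 (-0.14), differed in both directions and were not called. The sum of the 5 was 34.0 on both NeuroD2 arrays, against 34.4 and 34.6 on the control arrays. Of 4 endothelial markers, 0 were called. The summed log2 level of 5 blood cell markers ran from 28.0 to 28.1 on the NeuroD2 arrays and from 27.5 to 27.9 on the control arrays, and 0 of them were called. Hybridisation spikes, RNAs added before hybridisation, averaged 0.39 higher on the NeuroD2 arrays, 0.22 when control replicate 1 was dropped and 0.56 when control replicate 2 was dropped. Poly-A spikes, added before labelling, averaged 7.96 and 8.03 on the NeuroD2 arrays, against 6.95 on control replicate 1 and 7.98 on control replicate 2. The part of these marker and spike differences in the results was not tested.

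With the NeuroD2 vector, 3 of the 47 genes rose, PPP1R15A, CEBPG and ATF5, and 1 fell, ASNS, which encodes asparagine synthetase. The 3 that rose encode a phosphatase subunit and 2 transcription factors. The other 43 genes, the ER chaperones and the transfer RNA synthetases among them, did not pass the test. The 4 calls are 8.51% of the members, against 4.77% of all genes (1.81% higher and 2.96% lower), and against 7.74% of the genes at or above the median level, where 46 of the 47 members lie. The groups did not overlap in 34 of the 47 genes (72.3%), 14 higher and 20 lower, against 50.8% of all genes (24.2% higher and 26.6% lower) and 64.5% of those at or above the median level. The share called lay near that of genes at or above the median level. The median difference of the 47 genes was -0.03, against 0.00 over all genes, and the median absolute difference was 0.14 against 0.11. At an unadjusted p below 0.05, 8 members were higher and 6 lower, 29.8% of the 47 against 21.8% of all genes (9.27% higher and 12.5% lower). The 95% interval of a member's difference reached a median of 0.20 to either side.

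**Figure D1:**
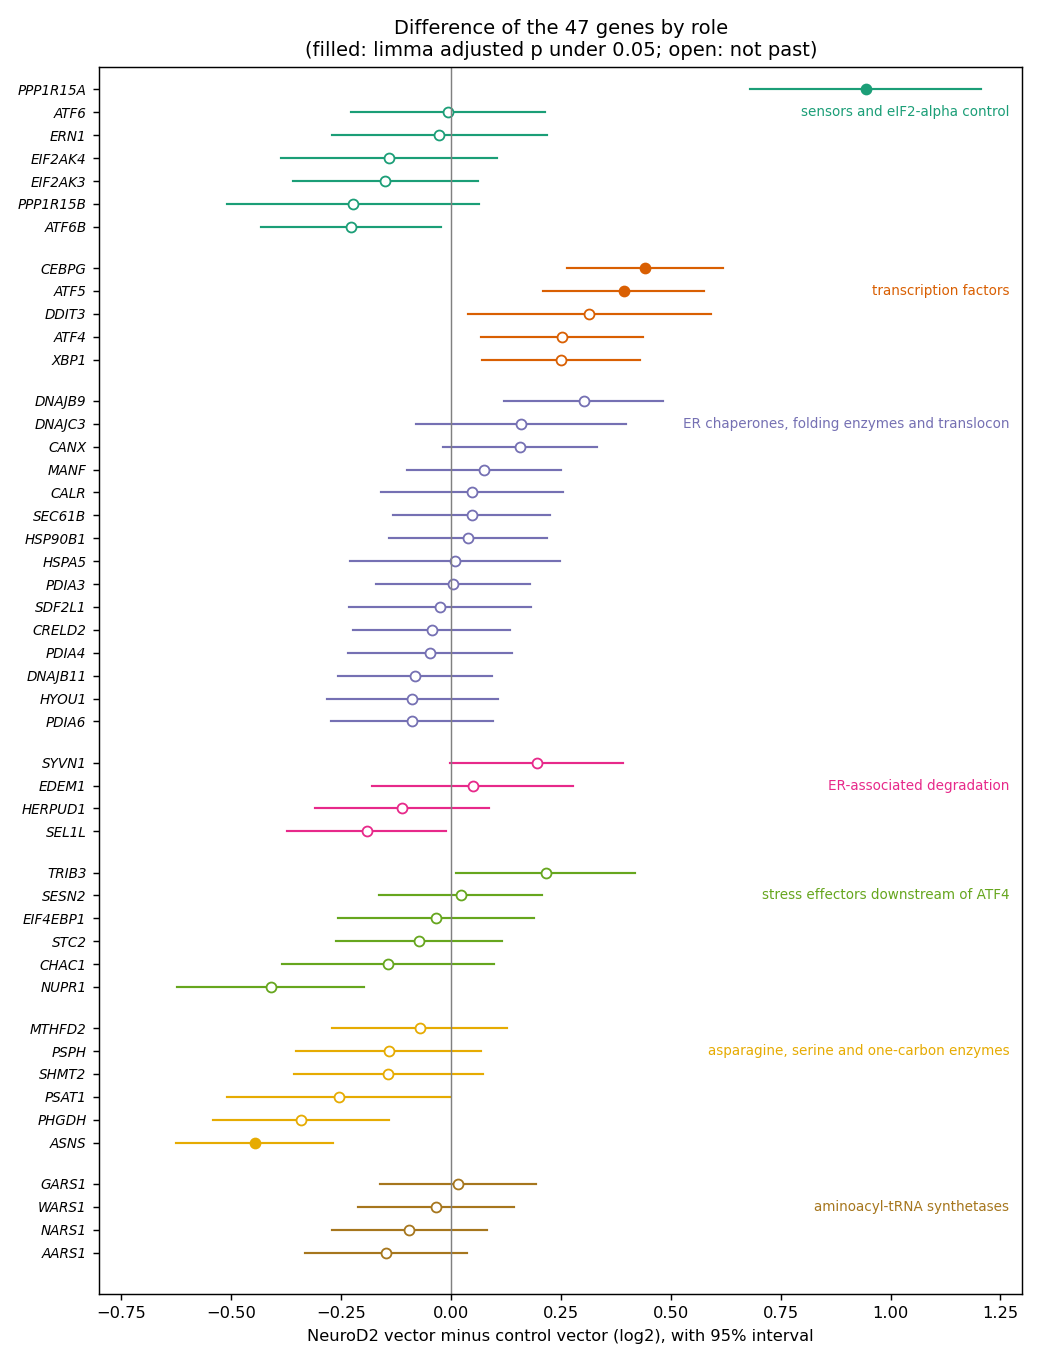
Difference between NeuroD2 and control vector in log2 units (x axis) for each of the 47 genes (y axis), in 7 colours by role, with the 95% interval of limma as a line; filled points passed an adjusted p of 0.05 and open points did not. The 5 transcription factor genes lie to the right of 0, the 6 asparagine, serine and one-carbon enzyme genes to the left, and the 15 chaperone, folding and translocon genes between -0.09 and 0.30.

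The 4 calls rest on having all 4 arrays. With any 1 array left out, limma called none of the 47 genes and few or none of all genes. The loss of calls was thus not particular to the members. The lowest adjusted p among members then lay between 0.0943 and 0.147. In these fits the group left with 1 array was assumed to vary like the other group. The differences themselves kept their sign, from 0.81 to 1.08 for PPP1R15A, 0.42 to 0.46 for CEBPG, 0.36 to 0.42 for ATF5 and -0.47 to -0.42 for ASNS. Among the 43 genes that did not pass, 29 moved by over 1.5 times or turned sign when some 1 array was dropped, 27 of them with a control array and 13 with a NeuroD2 array. The sign turned for 10, ERN1, ATF6, HSPA5, PDIA3, CALR, SDF2L1, EDEM1, SESN2, EIF4EBP1 and GARS1, whose differences were at most 0.05 in size.

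Among the 7 genes of the sensors and of eIF2-alpha control, PPP1R15A rose and the other 6 did not pass. PPP1R15A, the stress-induced phosphatase subunit, read 9.71 and 9.72 on the NeuroD2 arrays, against 8.91 and 8.63 on the control arrays. Both NeuroD2 arrays were above both control arrays, and the control arrays lay 0.27 apart. The difference was 0.94 (95% interval 0.68 to 1.21), which is 1.92-fold (limma adjusted p = 0.0141). It was the largest absolute difference among the 47 genes on their brightest probe sets. PPP1R15A has 1 probe set with 1 symbol here, of the kind marked x_at, which can match transcripts of more than 1 gene.

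PPP1R15B, which encodes the constitutive counterpart of that subunit, read 8.51 and 8.49 on the NeuroD2 arrays, against 8.57 and 8.88 on the control arrays (difference -0.22, interval -0.51 to 0.06, limma adjusted p = 0.341). Both NeuroD2 arrays lay below both control arrays, by less than the control arrays differed from each other, and the difference became -0.38 or -0.06 when control replicate 1 or 2 was dropped. Whether PPP1R15A and PPP1R15B differ in response was not tested. ATF6B, a homolog of ATF6, read 7.15 and 7.23 on the NeuroD2 arrays and 7.48 and 7.35 on the control arrays. Its groups did not overlap, the NeuroD2 arrays being lower, but its difference of -0.23 did not pass (limma adjusted p = 0.192), and its second probe set differed by 0.02.

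For the sensor genes EIF2AK3 (-0.15), EIF2AK4 (-0.14), ERN1 (-0.03) and ATF6 (-0.01), limma adjusted p-values lay between 0.382 and 0.986. Other probe sets differed by 0.16 for ERN1, 0.03 for EIF2AK4, and 0.10 and 0.27 for ATF6. All 3 EIF2AK3 probe sets were lower. Dropping 1 control array moved EIF2AK3 between -0.23 and -0.07 and EIF2AK4 between -0.26 and -0.02. It turned the sign of ERN1 (0.08 without the first control array) and of ATF6 (0.08 without the second). ERN1, between 4.16 and 4.38 on all arrays, was the only member below the median level of all genes. The promoter of PPP1R15A is shown because this gene changed most. The window runs from 250 bases before to 50 bases after the annotated start (RefSeq, GRCh38.p14), 5′ to 3′, and capitals mark a cyclic AMP response element, TGACGTCA, the kind of site to which ATF and CREB family factors bind.
PPP1R15A, chr19:48872171-48872470, plus strand: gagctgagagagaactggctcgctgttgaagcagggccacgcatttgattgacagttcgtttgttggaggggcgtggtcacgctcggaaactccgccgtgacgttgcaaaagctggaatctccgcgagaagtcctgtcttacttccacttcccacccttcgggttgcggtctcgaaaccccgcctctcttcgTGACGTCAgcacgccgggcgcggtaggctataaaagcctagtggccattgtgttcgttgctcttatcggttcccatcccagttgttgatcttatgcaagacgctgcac
The element TGACGTCA reads the same on both strands and was present in 1.85% of 35116 such windows of all genes. Among the 42 members with a window, PPP1R15A was the only one with it, in 1 of their 58 windows.

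For all 5 transcription factor genes the NeuroD2 arrays lay above both control arrays, and 2 of the genes, CEBPG and ATF5, rose. Over all genes, 24.2% lay apart in that direction and 4.77% were called in either direction, or 7.74% of those at or above the median level. CEBPG, a basic leucine zipper protein that pairs with ATF4, read 9.98 and 10.02 on the NeuroD2 arrays, against 9.57 and 9.54 on the control arrays. The difference was 0.44 (95% interval 0.26 to 0.62), 1.36-fold (limma adjusted p = 0.0341). Its second, dimmer probe set differed by 0.24 and did not pass among all probe sets (adjusted p = 0.293). ATF5, a relative of ATF4 with the same kind of translational control, read 8.94 and 8.997 on the NeuroD2 arrays, against 8.60 and 8.55 on the control arrays. Its difference was 0.39 (interval 0.21 to 0.58), 1.31-fold, close to the threshold (limma adjusted p = 0.0462). The 4 ATF5 probe sets differed by 0.31 to 0.55, all higher, and 0 of them passed when adjusted over all probe sets (lowest adjusted p = 0.0606, unadjusted p from 0.002 to 0.010).

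ATF4, the central factor of the amino acid response, read 12.22 and 12.18 on the NeuroD2 arrays, against 11.98 and 11.92 on the control arrays. The difference of 0.25 (interval 0.07 to 0.44) did not pass over all genes (limma adjusted p = 0.126). XBP1, the substrate of IRE1, read 10.38 and 10.44 on the NeuroD2 arrays and 10.16 and 10.16 on the control arrays, a difference of 0.25 (interval 0.07 to 0.43, limma adjusted p = 0.121). For both genes the groups were apart and each pair of replicates lay close together, but neither was called. DDIT3, the growth-arrest and death factor CHOP, read 9.52 and 9.52 on the NeuroD2 arrays, against 9.36 and 9.06 on the control arrays. Its difference was 0.32 (interval 0.04 to 0.59, limma adjusted p = 0.181), and it was 0.46 when control replicate 1 was dropped and 0.17 when control replicate 2 was dropped. The size of the DDIT3 difference thus depended on which control array was kept.

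**Figure D2:**
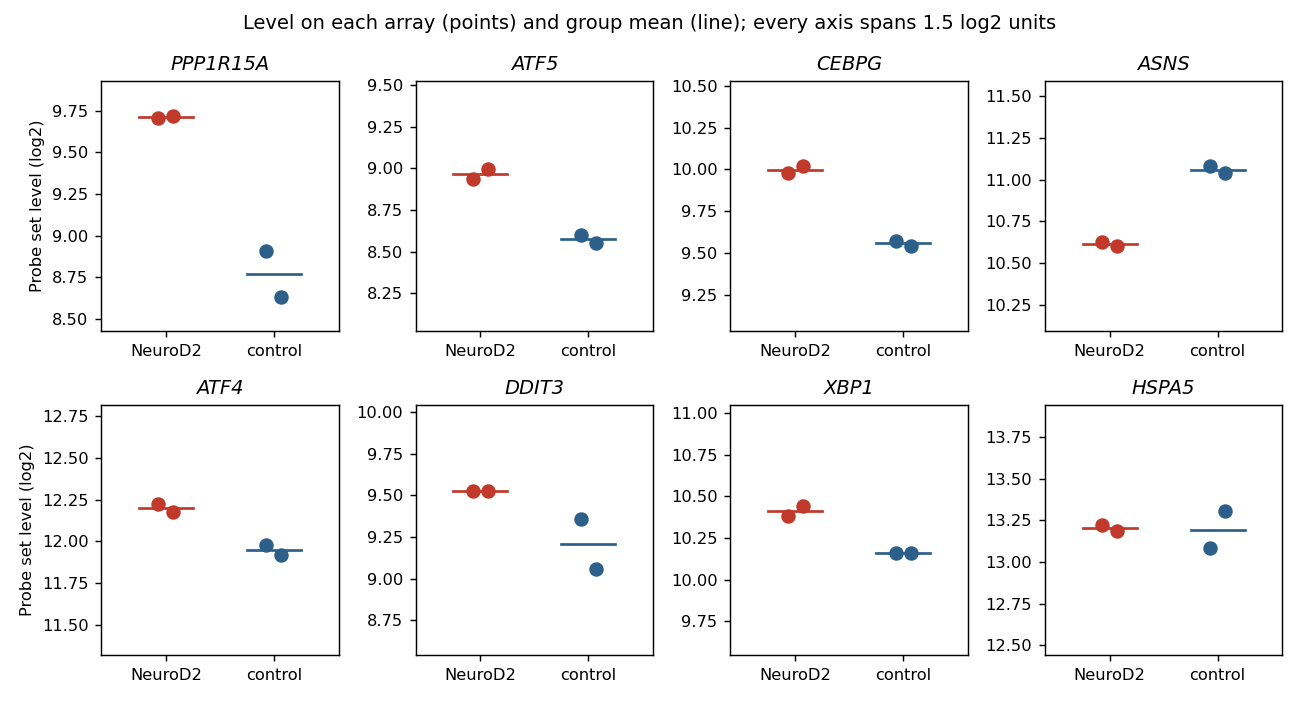
Probe set level in log2 units (y axis, 1.5 units in every panel) on each array for the 4 called genes (top) and for ATF4, DDIT3, XBP1 and HSPA5 (bottom); points are arrays and lines are group means, with NeuroD2 arrays left and control arrays right. PPP1R15A, with a difference of 0.94, is the widest gap, ASNS is the only gene shown that is lower with the NeuroD2 vector, and the HSPA5 points overlap.

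Of the 15 genes of ER chaperones, folding enzymes and the translocon, 0 passed limma's test, and 1 had an unadjusted p below 0.05, DNAJB9. Differences ran from -0.09 to 0.30 with a median of 0.01, and all 95% intervals lay between -0.28 and 0.48. HSPA5, which encodes the chief ER chaperone BiP, read 13.22 and 13.18 on the NeuroD2 arrays, against 13.08 and 13.30 on the control arrays. The groups overlapped, the 2 control arrays enclosing the NeuroD2 values, and the difference was 0.01 (interval -0.23 to 0.25, limma adjusted p = 0.979). DNAJB9, the BiP co-chaperone ERdj4 and a target of spliced XBP1, read 10.502 and 10.514 on the NeuroD2 arrays, against 10.17 and 10.24 on the control arrays (difference 0.30, interval 0.12 to 0.48, limma adjusted p = 0.0812). Its groups were apart by more than either pair of replicates, yet it was not called.

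DNAJC3, the co-chaperone P58IPK, read 9.89 and 9.78 on the NeuroD2 arrays and 9.57 and 9.78 on the control arrays (difference 0.16, limma adjusted p = 0.411). One control array nearly reached the lower NeuroD2 array. HSP90B1, the ER form of HSP90, differed by 0.04. The oxidoreductase genes PDIA3 (0.01), PDIA4 (-0.05) and PDIA6 (-0.09) and the lectin chaperone genes CALR (0.05) and CANX (0.16) had limma adjusted p-values between 0.275 and 0.986. MANF (0.08), CRELD2 (-0.04) and SDF2L1 (-0.03), secreted or luminal proteins of the ER stress response, did not pass, and neither did HYOU1 (-0.09), DNAJB11 (-0.08) and the translocon subunit gene SEC61B (0.05).

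Genes of this group are where the ER stress response element (ERSE) was described, and 1 site for each member that held it is shown to place the measured genes. HSP90B1 holds another ERSE in its window, not printed. It was searched on both strands as CCAAT, any 9 bases and CCACG. Each stretch runs 5′ to 3′ along the strand that reads the motif, from RefSeq windows on GRCh38.p14, and capitals mark its outer letters, CCAAT and CCACG.
XBP1, chr22:28800588-28800636, minus strand: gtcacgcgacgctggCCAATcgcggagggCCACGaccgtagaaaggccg
HSPA5, chr9:125241376-125241424, minus strand: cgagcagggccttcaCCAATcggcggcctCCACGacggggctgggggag
HSP90B1, chr12:103930201-103930249, plus strand: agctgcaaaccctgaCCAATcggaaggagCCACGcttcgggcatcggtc
PDIA6, chr2:10812838-10812886, minus strand: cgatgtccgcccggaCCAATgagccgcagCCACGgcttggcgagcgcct
CALR, chr19:12938369-12938417, minus strand: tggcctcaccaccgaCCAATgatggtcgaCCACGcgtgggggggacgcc
CANX, chr5:179698763-179698811, plus strand: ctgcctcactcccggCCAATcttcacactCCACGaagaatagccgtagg
CRELD2, chr22:49918539-49918587, minus strand: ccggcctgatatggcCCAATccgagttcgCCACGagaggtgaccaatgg
The motif was held by 7 of the 42 members with a window. That is 9 of their 58 windows, as some genes have several, against 0.0769% of all 35116 windows. Of the 7 genes, 0 were called, and their differences ran from -0.09 for PDIA6 to 0.25 for XBP1. A shorter form, ERSE-II, was searched as ATTGG, any 1 base and CCACG. It was held by 3 further members, in 3 of the 58 windows, against 0.0541% of all windows. HYOU1 holds it again elsewhere in its window, and 1 site per gene is printed. In the next lines its letters are in capitals.
HERPUD1, chr16:56932010-56932050, plus strand: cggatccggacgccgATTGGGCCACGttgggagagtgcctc
HYOU1, chr11:119057365-119057405, plus strand: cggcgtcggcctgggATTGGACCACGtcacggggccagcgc
SDF2L1, chr22:21642099-21642139, minus strand: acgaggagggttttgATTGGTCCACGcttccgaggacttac
The differences of HERPUD1, HYOU1 and SDF2L1 were -0.11, -0.09 and -0.03. Finding these letters is a description of the sequence and shows no binding in these cells.

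Of the 4 genes of ER-associated degradation, which returns misfolded proteins to the cytosol for destruction, 0 passed limma's test, and 1, SEL1L, had an unadjusted p below 0.05. SYVN1, the ubiquitin ligase HRD1, read 9.33 and 9.30 on the NeuroD2 arrays, against 9.06 and 9.18 on the control arrays (difference 0.20, limma adjusted p = 0.232). SEL1L, the adaptor that works with that ligase, read 10.35 and 10.39 on the NeuroD2 arrays, against 10.54 and 10.59 on the control arrays (difference -0.19, limma adjusted p = 0.208). The 2 partners thus had differences of opposite sign, each with groups that did not overlap and neither called. HERPUD1, an ER membrane protein of the same pathway, differed by -0.11, and EDEM1, which marks glycoproteins for degradation, by 0.05.

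The 6 stress effectors downstream of ATF4 included no call by limma, and 2 had an unadjusted p below 0.05, 1 in each direction. NUPR1, a small stress-induced chromatin protein, read 9.94 and 9.87 on the NeuroD2 arrays, against 10.39 and 10.23 on the control arrays. Both NeuroD2 values lay below both control values, and the difference of -0.41 (interval -0.62 to -0.20) missed the threshold (limma adjusted p = 0.0583). TRIB3, a pseudokinase that ATF4 and CHOP induce, read 9.02 and 9.10 on the NeuroD2 arrays, against 8.91 and 8.78 on the control arrays (difference 0.22, limma adjusted p = 0.208). Of the others, CHAC1, which degrades glutathione, differed by -0.14 and the secreted glycoprotein gene STC2 by -0.07. SESN2 (0.02) and EIF4EBP1 (-0.03), which encode inhibitors of mTORC1 signalling and of cap-dependent translation, had overlapping groups, as did CHAC1. These are values of the brightest probe sets. The second SESN2 probe set differed by 0.30 (limma unadjusted p = 0.0096, adjusted over all probe sets 0.111), and the mean of both by 0.16 (limma adjusted p = 0.247).

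All 6 genes of asparagine, serine and one-carbon metabolism had differences below 0, and ASNS fell. Over all genes, 9062 of 18132 had differences below 0. ASNS read 10.63 and 10.60 on the NeuroD2 arrays, against 11.08 and 11.04 on the control arrays, and the groups lay well apart compared with either pair. ASNS fell by 0.45 on the log2 scale (interval -0.62 to -0.27, limma adjusted p = 0.0334), and the control level was 1.36 times the NeuroD2 level. Its 4 probe sets differed by -0.49 to -0.41, of which 3 passed when adjusted over all probe sets and the other had an adjusted p of 0.0561. The sign was thus opposite to that of the differences of ATF4, ATF5 and CEBPG on the same arrays.

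PHGDH, the first enzyme of serine synthesis, read 10.17 and 10.19 on the NeuroD2 arrays, against 10.58 and 10.45 on the control arrays (difference -0.34, interval -0.54 to -0.14, limma adjusted p = 0.0769). PSAT1, the next enzyme, differed by -0.26 on its brightest probe set (limma adjusted p = 0.228), and by -0.38 when control replicate 1 was dropped and -0.13 when control replicate 2 was dropped. The third serine enzyme gene, PSPH (-0.14), and the mitochondrial one-carbon genes SHMT2 (-0.14) and MTHFD2 (-0.07) did not pass. In PHGDH, PSAT1, PSPH and SHMT2 the NeuroD2 arrays lay below both control arrays, whereas in MTHFD2 the groups overlapped. Over all genes, 26.6% lay apart in that direction. Of genes at or above the median level, 64.5% lay apart in either direction. For these genes, as for all others here, fewer cells with a transcript and less of it per cell cannot be told apart in RNA of whole cultures.

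The ASNS promoter is printed as that of the only member that fell. The window is again RefSeq's on GRCh38.p14, on the gene's strand, 5′ to 3′. Capitals mark the C/EBP-ATF response element (CARE), the site through which ATF4 and its partners are known to act on this gene.
ASNS, chr7:97872359-97872658, minus strand: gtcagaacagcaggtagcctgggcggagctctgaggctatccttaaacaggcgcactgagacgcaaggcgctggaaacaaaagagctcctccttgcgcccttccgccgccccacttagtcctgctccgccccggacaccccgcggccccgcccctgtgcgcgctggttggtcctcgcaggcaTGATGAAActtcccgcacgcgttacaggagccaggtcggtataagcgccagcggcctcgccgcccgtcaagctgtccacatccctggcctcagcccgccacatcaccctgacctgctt
The element was searched as TGATGNAA on both strands and was held by 8 of the 42 members with a window. That is 8 of their 58 windows, as some genes have several, against 3.62% of all windows. The 8 members are shown so that genes with the same letters can be read beside their differences, each along the strand that reads the motif.
CEBPG, chr19:33374056-33374093, plus strand: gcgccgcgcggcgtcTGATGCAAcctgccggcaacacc
PPP1R15B, chr1:204412022-204412059, minus strand: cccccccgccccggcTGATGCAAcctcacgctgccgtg
HERPUD1, chr16:56931951-56931988, minus strand: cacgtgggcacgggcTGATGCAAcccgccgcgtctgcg
CHAC1, chr15:40953247-40953284, minus strand: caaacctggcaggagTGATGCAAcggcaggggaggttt
ASNS, chr7:97872454-97872491, minus strand: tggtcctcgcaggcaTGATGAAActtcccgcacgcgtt
AARS1, chr16:70289671-70289708, plus strand: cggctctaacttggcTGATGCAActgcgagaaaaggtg
GARS1, chr7:30594830-30594867, minus strand: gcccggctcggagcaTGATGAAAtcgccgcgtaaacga
NARS1, chr18:57621800-57621837, minus strand: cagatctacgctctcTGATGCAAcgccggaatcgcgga
Of these 8 genes, CEBPG rose (0.44), ASNS fell (-0.45) and the other 6 did not pass, with differences of -0.22 for PPP1R15B, -0.15 for AARS1, -0.14 for CHAC1, -0.11 for HERPUD1, -0.09 for NARS1 and 0.02 for GARS1. Members with the same letters in this window thus included 1 gene called higher and 1 called lower. In the members' windows, 0 pairs of CARE, ERSE, ERSE-II and CRE matches overlapped.

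The 4 transfer RNA synthetase genes, whose enzymes charge transfer RNAs with amino acids, included 0 calls and 0 with an unadjusted p below 0.05 by limma. AARS1, for alanine, read 8.97 and 8.98 on the NeuroD2 arrays, against 9.17 and 9.09 on the control arrays (difference -0.15, limma adjusted p = 0.328). NARS1, for asparagine, read 12.26 and 12.29 on the NeuroD2 arrays and 12.37 and 12.38 on the control arrays (difference -0.09, limma adjusted p = 0.515). WARS1 (-0.03) and GARS1 (0.02) were close to 0. The 95% intervals of the 4 genes lay between -0.33 and 0.19, so that larger changes in either direction are outside them.

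Probe sets of a gene read the same RNA and are not replicates, but they show how far a value depends on the choice of the brightest. Of the 47 genes, 38 had more than 1 probe set, and in 23 of these all probe sets differed in 1 direction. All 9 CANX probe sets were higher, by 0.10 to 0.43 (lowest adjusted p over all probe sets 0.0515). All 6 HSPA5 probe sets were higher, by 0.01 to 0.35 (lowest adjusted p 0.0748), the brightest having the smallest difference. All 8 PSAT1 probe sets were lower, by -0.39 to -0.05 (lowest adjusted p 0.0605). HYOU1, in contrast, had 4 probe sets lower and 5 higher, and HSP90B1 had 2 lower and 5 higher. In these 5 genes 0 probe sets passed when adjusted over all probe sets, and the number with an unadjusted p below 0.05 ran from 0 for HSP90B1 to 5 for CANX. With the mean of all probe sets, HSPA5 differed by 0.18 (limma adjusted p = 0.211) and its adjusted p over 11 alternatives ran from 0.211 to 0.992.

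**Figure D3:**
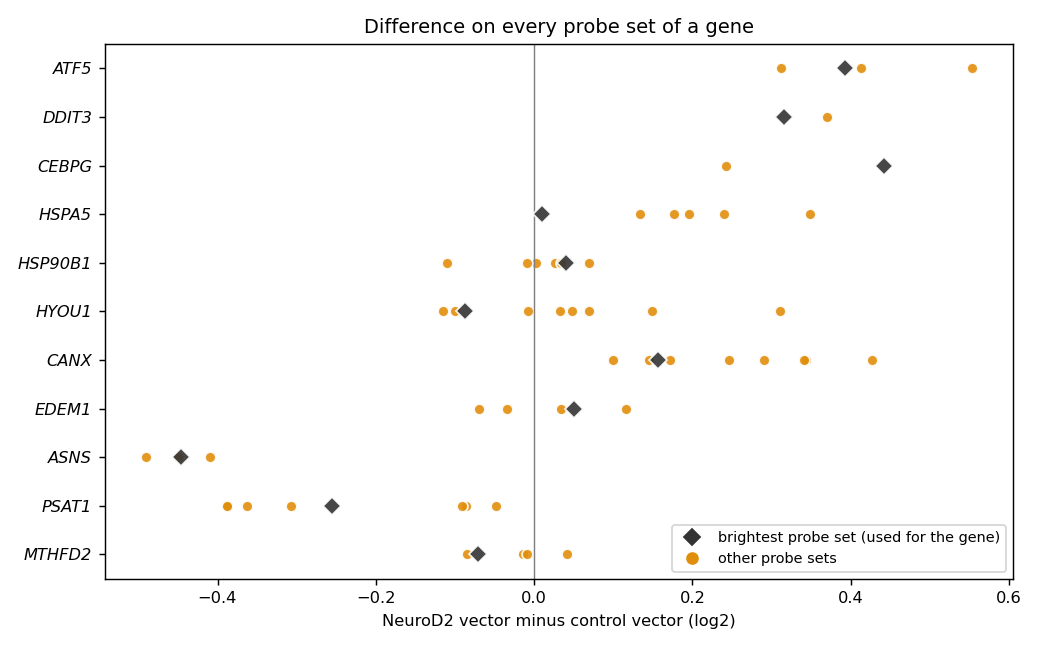
Difference between NeuroD2 and control vector in log2 units (x axis) on every probe set of 11 genes (y axis), those with at least 5 probe sets and the called or always described genes with more than 1; the dark diamond is the brightest probe set, which stands for the gene, and orange points are the others. The ATF5, DDIT3, CEBPG, CANX and HSPA5 points lie to the right of 0 and the ASNS and PSAT1 points to the left, while those of HSP90B1, HYOU1, EDEM1 and MTHFD2 lie on both sides.

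A second set of 108 genes of the same pathways, listed from general knowledge of these responses, had 101 measured genes, of which 4 rose, 4 fell and 93 did not pass. With all 4 arrays the share called was thus 7.92%, again close to the 7.74% of genes at or above the median level. With any 1 array left out, few or none of them were called, as was so over all genes. With quantile normalization or with centring on array medians, 7 of these genes were called higher and 3 lower. Over all genes the calls were 328 higher and 536 lower, against 428 and 518 with quantile normalization and 437 and 452 with centring. The members' split of 3 higher and 1 lower was the same under both.

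Among 20 further genes of the integrated stress response, 2 rose and 2 fell. That is 20% called, against 4.77% of all genes and 7.74% of those at or above the median level. ATF3, a transcription factor induced by ATF4, read 8.13 and 8.21 on the NeuroD2 arrays, against 7.61 and 7.62 on the control arrays (difference 0.56, limma adjusted p = 0.0216). CEBPB, a C/EBP factor, read 11.68 and 11.58 on the NeuroD2 arrays, against 11.03 and 11.16 on the control arrays (difference 0.53, limma adjusted p = 0.0333). BBC3, which encodes the pro-apoptotic protein PUMA, read 7.83 and 7.84 on the NeuroD2 arrays, against 8.45 and 8.50 on the control arrays (difference -0.64, limma adjusted p = 0.0145). In each of these 3 genes the groups stood apart by more than the replicates. KLHL24, a ubiquitin ligase adaptor, read 6.67 and 6.58 on the NeuroD2 arrays, against 6.99 and 7.08 on the control arrays, and fell by 0.41 close to the threshold (limma adjusted p = 0.0498).

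Of 17 further genes of amino acid transport and synthesis, 2 transporter genes rose and 1 enzyme gene fell. These calls are 17.6% of the 17, against 4.77% of all genes and 7.74% of those at or above the median level. SLC7A5, the large neutral amino acid transporter LAT1, read 8.66 and 8.54 on the NeuroD2 arrays, against 8.11 and 7.996 on the control arrays (difference 0.55, limma adjusted p = 0.0315). SLC7A11, the cystine-glutamate exchanger, read 10.13 and 10.14 on the NeuroD2 arrays, against 9.65 and 9.78 on the control arrays (difference 0.42, limma adjusted p = 0.0457). SHMT1, the cytosolic counterpart of SHMT2, read 8.68 and 8.61 on the NeuroD2 arrays, against 9.16 and 9.17 on the control arrays (difference -0.52, limma adjusted p = 0.0247). Over the 17 genes, the NeuroD2 arrays lay above both control arrays for 3 and below both for 10, 76.5% in all. The share was 50.8% over all genes (24.2% higher and 26.6% lower) and 64.5% of those at or above the median level. Transporter genes lay in both groups: among the 10 were SLC1A4 (-0.81), SLC7A1 (-0.15), SLC6A9 (-0.15) and SLC38A2 (-0.13), which did not pass.

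Among 21 genes of ER entry, exit and membrane factors 1 fell, KDELR3, a receptor that returns escaped ER proteins, with 8.55 and 8.60 on the NeuroD2 arrays, against 9.54 and 9.46 on the control arrays (difference -0.92, limma adjusted p = 0.00687). That call is 4.76% of the 21 genes, against 4.77% of all genes. The remaining lists had no calls by limma. ER folding and redox genes had 0 of 14, with 5 at an unadjusted p below 0.05, ER-associated degradation had 0 of 14, with 2, and the other transfer RNA synthetases had 0 of 15, with 1. Differences of those 15 synthetase genes ran from -0.19 to 0.23, 13 of them above 0.

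**Figure D4:**
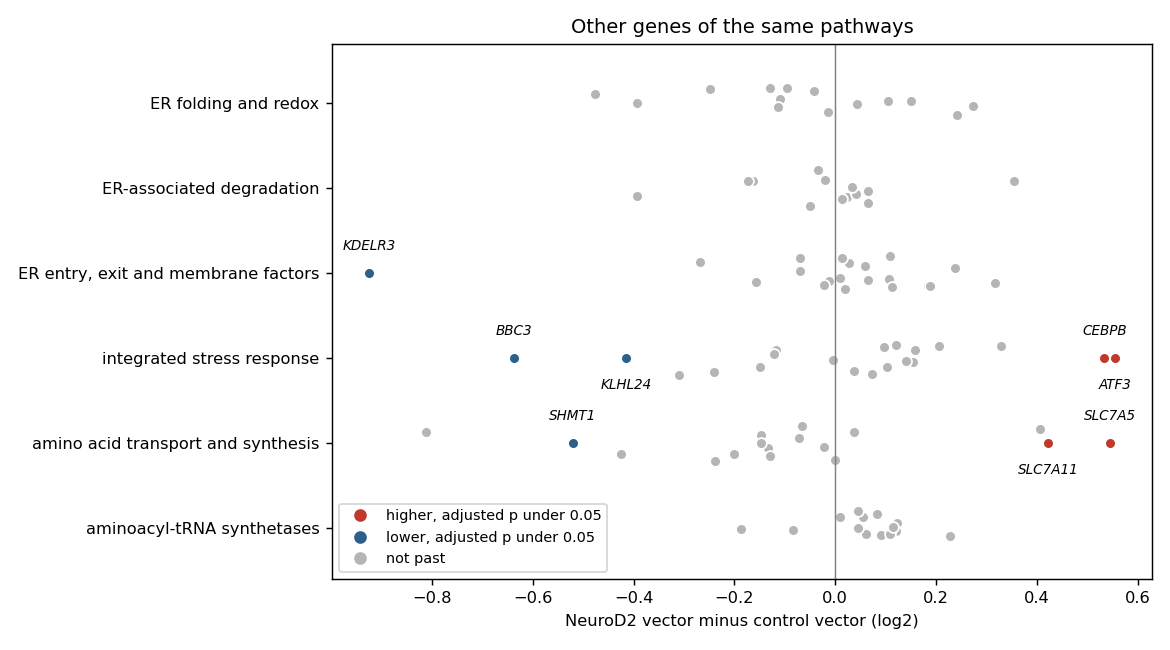
Difference between NeuroD2 and control vector in log2 units (x axis) for 101 further genes of these pathways in 6 lists (y axis, spread vertically for legibility); red points were called higher, blue points lower, and grey points did not pass an adjusted p of 0.05. KDELR3 at -0.92 lies farthest from 0, and the synthetase genes lie between -0.19 and 0.23.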

How the data were processed

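The authors' deposited table gives 1 value per probe set and array, read here as log2 from its values (2.65 to 14.3, array medians 5.98 to 5.99). How probes were background-corrected, normalized and summarised, and with which software, is not given in the sources used here. No detection call or scan time entered the work. Of 49395 probe sets, 44988 had 1 gene symbol in the platform annotation and gave 18132 genes. A gene was read on its brightest probe set. Groups were compared with limma 3.58.1 in R 4.3.3 (lmFit, eBayes, two-sided, no block), on 2 residual and 3.84 prior degrees of freedom, with Benjamini-Hochberg adjustment over all genes. The code of the fit was run on simulated data whose variances were drawn from limma's own fitted prior. That run checks the code and not how these arrays vary. With 2 arrays in each group an exact permutation p is at least 0.333, and none was used. No sequencing depth applies, and the number of arrays limits the precision.

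The members, the lists and the tests were chosen with earlier results of these data known. Genes named with values on every array were those called, the 2 largest absolute differences in a role with under 2 calls, ATF4, DDIT3, XBP1 and HSPA5, and called genes of the second set. PPP1R15B and figures on probe sets were added after values were seen. Of 23 cell type markers, 3 were called, all lower. Promoter windows came from RefSeq (GRCh38.p14), and 42 of 47 symbols matched. The results were recomputed with a replicate block, without each array in turn, after quantile normalization or median centring, with limma's trend or robust option, without dim genes, and from averaged or separate probe sets.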

Additional observations from a re-analysis of the deposited data

How the results depend on the processing

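The direction of PPP1R15A, CEBPG, ATF5 and ASNS was the same under all 11 alternatives, and their calls were kept under the other scalings (quantile, median centring), limma's trend and robust options, the removal of dim genes and the mean of probe sets. No called member reversed. With any 1 array left out, limma called 0 of the 47 genes each time, 0 to 1 of the second set and 0 to 66 of all genes, and the median of the members ran from -0.04 to -0.02. With the replicate block, 1 of the 47 genes was called (PPP1R15A, adjusted p = 0.0343), 2 of the second set and 335 of all genes, and CEBPG (0.0707), ATF5 (0.0855) and ASNS (0.0684) did not pass. The replicate numbers are not known to pair the arrays: deviations of same-numbered arrays from their group means correlated at 0.08 across genes. An intensity trend called 10 members, 22 of the second set and 2056 of all genes, adding ATF4, XBP1, DNAJB9, CANX, NUPR1 and PHGDH. With the 9066 genes at or above the median level, 9 of 46 members were called, 23 of 96 of the second set and 2081 of all. The members added were ATF4, XBP1, DNAJB9, NUPR1 and PHGDH. In the fit of all 18132 genes, 702 of those 9066 were called. The mean of probe sets called 6 members, adding NUPR1 and PHGDH, and 13 of the second set. The count over all genes for that setting is not printed here, so these calls are given without a background share. With centring on array medians the members' median was 0.0034. The cause of these changes was not tested.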

Other observations

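Of the second set of pathway genes, 3 that missed the threshold were singled out after their values were seen. Others lay as close to it, among them FKBP7 (difference -0.39, limma adjusted p = 0.0524) and SELENOS (difference 0.35, limma adjusted p = 0.0579). SLC3A2, which encodes the shared heavy chain of the SLC7A5 and SLC7A11 transporters, read 11.26 and 11.23 on the NeuroD2 arrays, against 10.90 and 10.78 on the control arrays (difference 0.41, limma adjusted p = 0.0513). The neutral amino acid transporter gene SLC1A4 read 5.90 and 6.43 on the NeuroD2 arrays, against 6.99 and 6.97 on the control arrays (difference -0.81, limma adjusted p = 0.0583). Its NeuroD2 arrays lay farther apart than its control arrays, and both were below them. ERO1A, the oxidase that recharges the protein disulfide isomerases and a gene induced by low oxygen, read 9.31 and 9.38 on the NeuroD2 arrays, against 9.72 and 9.93 on the control arrays (difference -0.48, limma adjusted p = 0.0524).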
